A study of Mus musculus with 4 samples.

Results

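The genes described here encode the constant regions of the T cell receptor chains (Trac, Trbc1, Trbc2 and Trdc), the CD3 chains that carry its signal (Cd3d, Cd3e, Cd3g and Cd247), the costimulatory receptor CD28 (Cd28) and the adaptor LAT (Lat). They were chosen by name, though with earlier results of these data known, and number 10 of the 18191 gene names of the series. All 10 were analysed among the 15242 rows of the first pair of libraries, and 6 of them among the 12546 rows of the second. No row of the second has the name of a receptor locus gene, so it says nothing on the level of the 4 constant region genes. The samples were ILC3s (innate lymphoid cells of group 3) from small intestines of mice at steady state, sorted as live cells with low CD45, high CD90.2 and no CD3 on their surface, with 1 library in each of 4 groups. The first pair was ILC3s of IL-17D-deficient mice, labelled Il17d-KO, and of wild-type (WT) mice. The second, also from WT mice, was CD93-positive and CD93-negative cells, sorted after the cell suspension had been kept for 12 h in culture without stimulation. The labels of all libraries carry this culture but name only the CD93 sort, so whether KO and WT cells were cultured is unclear; the sources used here give no strain, age, number of animals or allele.

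A T cell receptor is a pair of chains, alpha with beta or gamma with delta. Each chain is spliced from variable, joining and, in beta and delta, diversity segments that were joined in the genome, followed by a constant region. The receptor chains have almost no cytoplasmic part, and the CD3 gamma, delta, epsilon and zeta chains signal for them through tyrosine motifs (ITAMs) that the kinase LCK phosphorylates and the kinase ZAP70 binds, after which LAT gathers the enzymes of the next steps. ILC3s lack a rearranged receptor, but unrearranged receptor loci can be transcribed in lymphocytes, and zeta, LAT, LCK and ZAP70 also serve receptors of natural killer (NK) cells, so RNA of these genes is not in itself a sign of a T cell.

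Levels are the authors' deposited FPKM: fragments for each kilobase of exon, scaled to library size. Reads were recovered from the FPKM and the gene lengths, for genes where these gave whole numbers. The recovery gave scaling totals of 27002581 (KO), 26087274 (WT), 11712846 (CD93-positive) and 11790580 (CD93-negative). A difference is log2 of (FPKM + 1) in one library over (FPKM + 1) in the other, so that changes of genes with little RNA are understated. Genes with 1 FPKM or more in either library of a pair count as measured, and 2-fold stands for a log2 difference of 1 or more. Each group has 1 library, so no replicate error can be given and nothing was tested. Folds of single genes are ratios of FPKM with exact (Clopper-Pearson) 95% intervals, which cover counting error only and compare libraries, not conditions. Of the ILC3 genes, Il7r, the gene of the IL-7 receptor (303 FPKM in KO, 230 in WT, 85.7 in CD93-positive and 86.8 in CD93-negative cells), and Il23r, that of the IL-23 receptor (243, 258, 47.1 and 42.7 FPKM in the same order), were present in every library.

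The alpha, beta and delta constant region genes had more RNA in the KO library, the alpha and delta ones by more than the beta ones. The 4 gamma constant genes, given below, had a summed ratio of KO over WT of 0.903 per scaling total. Trac, the alpha constant gene (ENSMUSG00000076928.5; mm10 chr14:54220521-54224206, plus strand), had 177 FPKM in KO and 86.7 FPKM in WT ILC3s, 2.04-fold higher (1.94 to 2.15). Trdc, the delta constant gene of the same locus (ENSMUSG00000104876.1; chr14:54142851-54148868, plus strand), had 25.5 FPKM in KO and 8.72 FPKM in WT, 2.93-fold higher (2.71 to 3.16). In bulk samples, fewer cells of a type and less RNA per cell cannot be told apart. The beta constant genes were the highest of the 10 in both libraries. Trbc1 (ENSMUSG00000076490.6; chr6:41538218-41539881, plus strand) had 532 FPKM in KO and 416 FPKM in WT, 1.28-fold higher (1.24 to 1.32). Trbc2 (ENSMUSG00000076498.2; chr6:41546730-41548352, plus strand) had 469 FPKM in KO and 335 FPKM in WT, 1.40-fold higher (1.36 to 1.45). The differences of both beta genes, 0.35 and 0.48, lay below the 2-fold limit.

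Trbc1 and Trbc2 are near-identical copies whose starts lie 8512 bases apart, and their separate values are uncertain because reads can come from either. Over the first 512 bases of the constant region in the GENCODE M21 transcripts, 24 bases differed (95.3% identity), and the longest stretch without a difference was 259 bases. The stretch that tells the copies apart best is shown, bases 393 to 512 from the start of the constant region, with the 20 bases that differ in capitals.
Trbc1: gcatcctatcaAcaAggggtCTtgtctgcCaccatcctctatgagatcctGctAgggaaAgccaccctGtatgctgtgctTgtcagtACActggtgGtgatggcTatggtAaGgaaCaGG
Trbc2: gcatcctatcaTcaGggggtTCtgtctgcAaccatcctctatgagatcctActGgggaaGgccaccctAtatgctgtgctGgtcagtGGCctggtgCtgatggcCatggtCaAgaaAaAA
The sum of both copies does not depend on how shared reads were split between them. It does depend on whether reads matching both copies were counted, which is not known here. The sum was 19511 reads in KO and 14173 reads in WT, a ratio of 1.33 per scaling total.

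The CD3 chain genes were also higher in the KO library, and unevenly so. Cd3d, the delta chain gene (ENSMUSG00000032094.8; chr9:44981786-44987339, plus strand), had 40.1 FPKM in KO and 18.9 FPKM in WT, 2.12-fold higher (1.96 to 2.30). Cd3g, the gamma chain gene (ENSMUSG00000002033.14; chr9:44969572-44980431, minus strand), had 37.1 FPKM in KO and 24.3 FPKM in WT, 1.53-fold higher (1.45 to 1.62), and stayed below the 2-fold limit. These neighbours are transcribed away from each other, with 1355 bases between their starts. Cd3e, the epsilon chain gene (ENSMUSG00000032093.7; chr9:44998740-45009627, minus strand), was far lower in level and had the larger fold, with 3.14 FPKM in KO and 0.78 FPKM in WT (4.03-fold higher, 3.16 to 5.18). In FPKM, which is per length, Cd3d stood above Cd3e by 12.8-fold in KO and 24.3-fold in WT. Each receptor complex holds the epsilon chain with both others. Cd247, the zeta chain gene (ENSMUSG00000005763.15; chr1:165788681-165877277, plus strand), had 3.4 FPKM in KO and 0.266 FPKM in WT, from 489 and 37 reads, and its 12.8-fold difference (9.13 to 18.4) was the largest ratio among the 10. Other annotated genes overlap Cd3e, Cd247, Trdc and Lat, and the use of strand in counting is not stated in the labels.

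**Figure D1:**
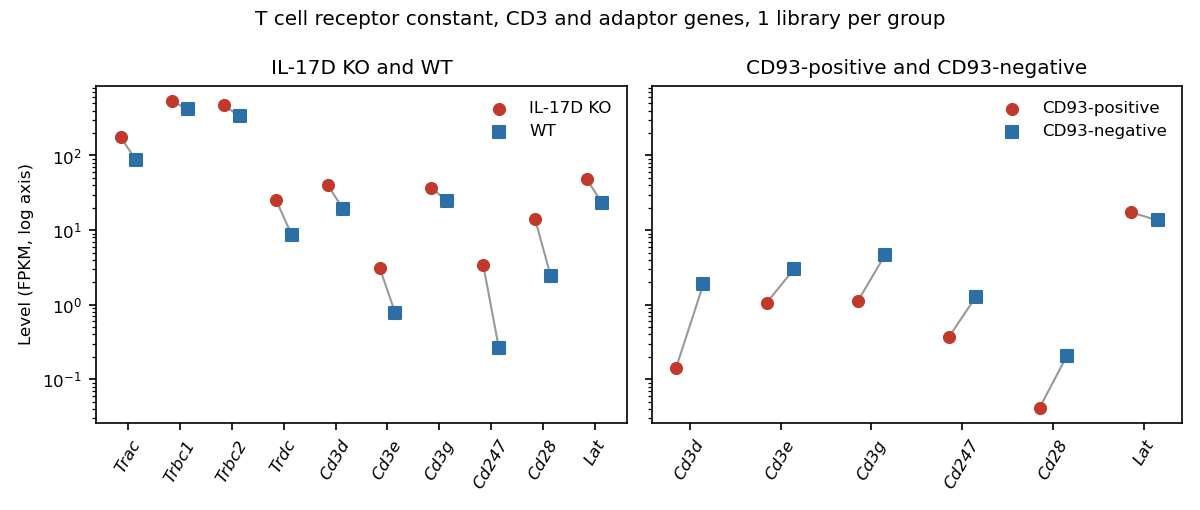
Level of each gene in FPKM on a log axis, 1 point per library, in the KO and WT pair (left) and the CD93 pair (right). All 10 KO points lie above the WT points, and in the CD93 pair every gene other than Lat lies lower in CD93-positive ILC3s.

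Cd28 and Lat completed the group. Cd28, whose product gives T cells their second signal (ENSMUSG00000026012.2; chr1:60716800-60773359, plus strand), had 14.1 FPKM in KO and 2.44 FPKM in WT, 5.77-fold higher (5.18 to 6.44). Lat (ENSMUSG00000030742.7; chr7:126363824-126369570, minus strand) had 47.7 FPKM in KO and 22.8 FPKM in WT, 2.09-fold higher (1.97 to 2.22). All 10 genes thus had a positive difference, against 50.5% of the 12376 genes measured, and their median was 1.04, against 0.01 for all genes. At least 2-fold higher were 7 of the 10 and lower were 0, against 16.6% (higher) and 12.7% (lower) of all measured genes. Trac (1.02), Lat (1.03) and Cd3d (1.04) lay close to the limit. With a pseudocount of 5 in place of 1 the count was 2, Trdc and Cd28, beside 4.03% of all measured genes. Of the 10, Cd28 alone lay above the central 90% of all measured genes (-1.60 to 1.87): its difference of 2.13 was exceeded by 3.51% of them, and that of Cd3d by 15.7%.

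The order of levels was much alike in both libraries. From high to low it ran Trbc1, Trbc2, Trac, Lat, Cd3d, Cd3g, Trdc, Cd28, Cd247 and Cd3e in KO ILC3s, where the Poisson intervals (counting error only) of Cd3d and Cd3g overlapped, as did those of Cd247 and Cd3e. In WT ILC3s it ran Trbc1, Trbc2, Trac, Cd3g, Lat, Cd3d, Trdc, Cd28, Cd3e and Cd247, and only Cd3g and Lat overlapped. The beta constant genes stood above 99% of the rows of the KO library (percentiles 99.2 for Trbc1 and 99.1 for Trbc2), and Cd3e and Cd247 lay near the middle of it (49.1 and 50.8). In WT, Cd3e and Cd247 lay at percentiles 26.7 and 15.8.

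**Figure D2:**
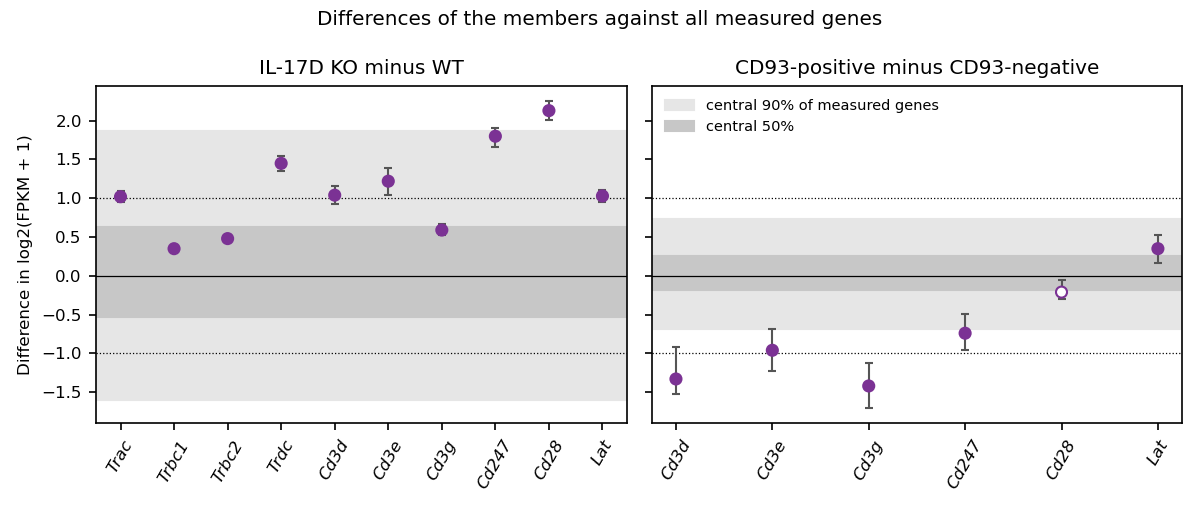
Difference in log2(FPKM + 1) of each gene, KO minus WT (left) and CD93-positive minus CD93-negative (right), with 95% counting intervals; shading gives the central 90% and 50% of all measured genes, dotted lines the 2-fold limit, and the open point a gene below 1 FPKM in both libraries. The shaded band is wide in the KO and WT pair (-1.60 to 1.87) and narrow in the CD93 pair (-0.69 to 0.73), where Cd3d, Cd3e, Cd3g and Cd247 lie below it.

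Most of the alpha segments with a row, which are joined to the alpha constant region in T cells, had more reads in the KO library. Segments are short, so reads are given rather than FPKM. Of the 51 alpha variable (Trav) segments analysed, 1 had 0 reads in KO and 30 had 0 reads in WT; 37 of 50 measured were at least 2-fold higher and 8 lower, beside 16.6% and 12.7% of all measured genes. Of 15 alpha joining (Traj) segments, 14 had 11 to 43 reads each in KO and 0 in WT, and Traj58 alone had reads in both (65 in KO and 41 in WT). Beta variable (Trbv) segments had 0 reads in KO in 2 of 12 and 0 in WT in 5 of 12. Of the beta joining (Trbj) segments, 10 of 12 were at least 2-fold higher and 1 lower, from 1854 reads in KO and 856 in WT in sum. Rows have at least 10 reads over both libraries, so a segment with 0 reads in WT has a row only through KO, and one with 0 in KO only through WT. The counts describe the segments with a row, not the locus: GENCODE M21 holds 128 Trav and 60 Traj segments.

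Reads of 0 in 1 library were common in this pair, so these counts need their background. Among all genes whose recovered reads over both libraries came to 10 to 99, 29.6% had 0 reads in KO and 24.2% had 0 reads in WT. Among the 73 receptor segments with as many reads, 4 (5.48%) had 0 in KO and 47 (64.4%) had 0 in WT. Segments are not independent of each other: near-identical copies in the Tcra locus can share reads, and Trav6d-7 and Trav6n-7 have equal values, 1 read in KO and 23 in WT.

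**Figure D3:**
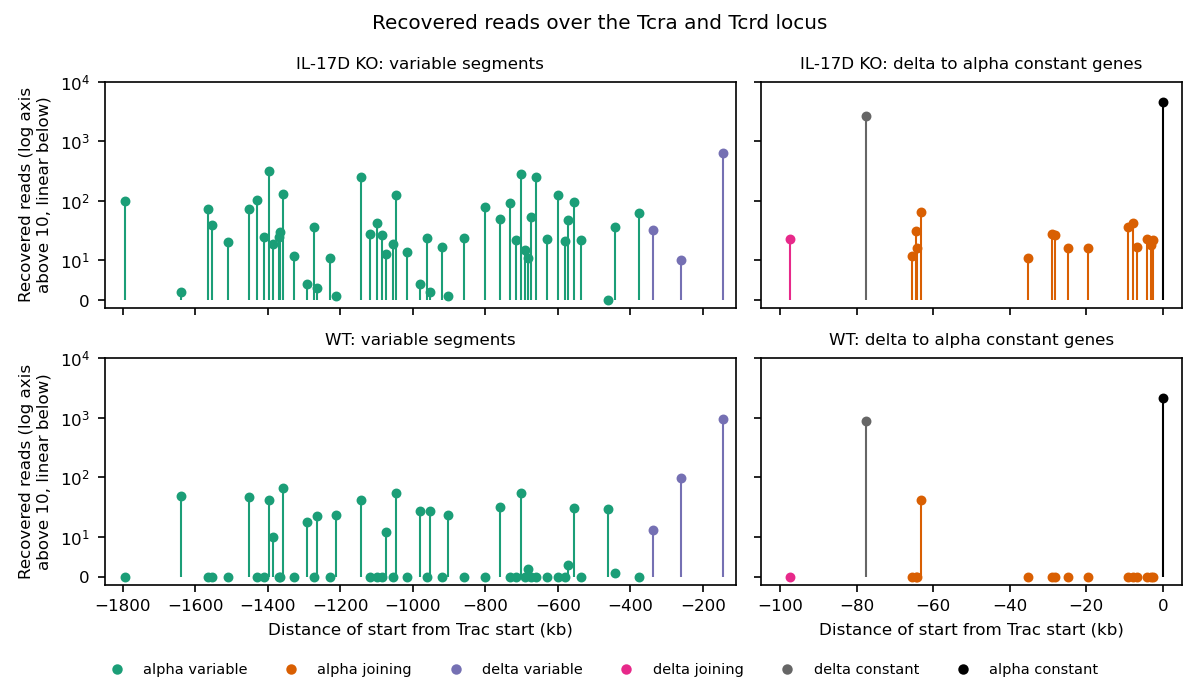
Recovered reads of each segment of the Tcra and Tcrd locus against the distance of its start from that of Trac in kb, KO above and WT below, on an axis that is linear up to 10 reads and logarithmic beyond; left, variable segments, right, the stretch with the delta constant, alpha joining and alpha constant genes. Of the segments with a row, most variable and joining ones have points above 0 in KO and at 0 in WT, while Trdv4 is high in both.

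Several segments known from T cells with an invariant alpha chain had rows, and they were chosen for description after their values had been seen. All of those described had more reads in KO. Of the 50 Trav segments measured, 8 were at least 2-fold lower in KO, such as Trav3-1 with 2 reads in KO and 48 in WT. Trav11 and Traj18 form the alpha chain of invariant NKT cells, T cells that recognise lipids on CD1d. Trav11 had 285 reads in KO and 54 in WT (5.10-fold higher, 3.80 to 6.95), its copy Trav11d had 311 and 42 (7.15-fold, 5.17 to 10.1), and Traj18 had 16 and 0. Trav1 and Traj33 form that of mucosal-associated invariant T cells, which recognise vitamin B2 metabolites on MR1. Trav1 had 99 reads in KO against 0 in WT, and Traj33 had 11 and 0. Having 0 reads in WT does not set Trav1, Traj18 and Traj33 apart: so had 14 of the 15 Traj and 30 of the 51 Trav segments analysed. A row counts reads over a segment, whether joined or not, and joins were not analysed here. Both joining segments are given, from GENCODE M21 (mm10, plus strand), at chr14:54200777-54200842 for Traj18 and chr14:54185358-54185414 for Traj33. Capitals mark the bases of the motif of phenylalanine or tryptophan, glycine, any residue and glycine that joining segments share.
Traj18: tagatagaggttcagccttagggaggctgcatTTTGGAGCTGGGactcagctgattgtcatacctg
Traj33: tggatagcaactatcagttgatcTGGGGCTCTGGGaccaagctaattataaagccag

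The gamma locus was close to even between the libraries, and the delta locus was mixed. Tcrg-C1, a gamma constant gene, had 824 FPKM in KO and 970 FPKM in WT, 1.18-fold lower (1.16 to 1.20). The 4 gamma constant genes together had 27800 reads in KO and 29742 in WT, a ratio of 0.903 per scaling total, and 0 of them differed by 2-fold. The 2 gamma joining segments (214 reads in KO, 215 in WT) and the 5 gamma variable segments (885 and 770) were close to even in sum, although Tcrg-V1 was higher (206 reads in KO, 33 in WT) and Tcrg-V6 lower (0 and 19). In the Tcrd locus the constant gene was higher in KO, as given above, while Trdv4 was lower, with 625 reads in KO and 933 in WT (ratio 0.647, 0.584 to 0.717), as was Trdv2-2 (10 and 98; ratio 0.0986, 0.0458 to 0.189). Trdv1 was higher, with 32 reads in KO against 13 in WT (2.38-fold, 1.21 to 4.94), and the joining segment Trdj1 had 23 and 0. In the Tcrb locus, the diversity segments went opposite ways: Trbd1 was higher (268 reads in KO and 103 in WT) and Trbd2 lower (48 and 139). FPKM of these segments is inflated by their length of 12 and 14 bases; Trbd1 had 827 FPKM in KO and 329 FPKM in WT. Trbj1-1 had 637 reads in KO against 408 in WT (491 FPKM and 326 FPKM), and the strongest contrast among the beta joining segments was at Trbj1-7, with 60 and 3 reads (19.3-fold, 6.30 to 96.3).

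Few signalling genes downstream of the receptor differed by 2-fold, though their median lay above that of all genes. Of 40 genes on a list of T cell receptor signalling, 4 were at least 2-fold higher in KO ILC3s and 0 lower, with a median of 0.32. These were Prkcq, the gene of protein kinase C theta (6.09 FPKM in KO and 1.15 in WT; 5.28-fold, 4.56 to 6.14), Ptpn6, the gene of the phosphatase SHP-1 (37.3 and 12.4; 3-fold, 2.78 to 3.24), the adaptor gene Grb2 (17 and 6.89; 2.47-fold, 2.23 to 2.74) and Ubash3a, the gene of a phosphatase-like inhibitor of receptor signalling (1.88 FPKM in KO and listed at 0 in WT). The share of higher genes, 4 of 40, was below the 16.6% of all measured genes, and that of lower genes, 0 of 40, was below their 12.7%. The median of 0.32 stood against 0.01 for all measured genes. With both libraries scaled to a common sum 10 of 40 were higher, beside 19.3% of all genes. Lck had 137 FPKM in KO and 69.9 in WT (difference 0.96) and Zap70 had 83.1 and 55.0 (0.59). Lcp2, the gene of the adaptor SLP-76 that joins LAT, had 98.6 and 70.5. Trat1, whose product binds the zeta chain, had 54.1 FPKM in KO and 27.9 in WT (difference 0.93).

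Of the T cell surface and subset genes, 4 of 13 measured were at least 2-fold higher in KO and 0 lower, beside 16.6% and 12.7% of all measured genes, with a median of 0. Higher were Cd40lg, the gene of CD40 ligand (47.2 FPKM in KO and 14.8 in WT), Cd5 (5.69 and 1.82), Cd6 (2.02 and 0.18) and Cd8b1, the CD8 beta chain gene (2.87 and 0.879). Cd8a had 0.631 FPKM in KO and 1.47 in WT, the other direction with less than 2-fold on this scale, and Cd4 had 4.23 and 2.98. Tcf7 (113 and 118) and Bcl11b (2.52 and 2.81), transcription factor genes of T cells that innate lymphoid cells use too, were close to even. Of the adaptors that carry ITAMs in innate cells, Fcer1g had 658 FPKM in KO and 797 in WT, above every CD3 chain gene in both libraries, and Tyrobp, the gene of DAP12, had 31.6 and 7.41.

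Markers of other cells differed between the same 2 libraries. Exocrine pancreas genes were at least 2-fold higher in KO in 6 of 6 (summed 1041 FPKM in KO and 0.235 in WT), epithelial genes in 6 of 8 measured (1070 and 296), myeloid genes in 4 of 4 (64.4 and 12.0) and B and plasma cell genes in 4 of 8 measured (4673 and 2839), with 0 lower in these lists. The shares over all measured genes were 16.6% higher and 12.7% lower. Among the B cell genes, Cd79a had 2.01 FPKM in KO and 0.0789 in WT, from 79 and 3 reads. Cd79b (31.5 and 30.4 FPKM) and Igkc (1846 and 1689 FPKM) were close to even. Genes of NK cells and ILC1s were higher in 3 of 10 and lower in 0 (1275 and 917). Of 12 ILC3 genes, 1 was at least 2-fold higher, Gata3 (118 and 55.6), and 0 lower. The part of other cells, or of their RNA, in the levels of the receptor and CD3 genes was not tested.

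In the second pair, the CD3 chain genes were low throughout and lower in CD93-positive ILC3s. Cd3g had 1.12 FPKM in CD93-positive and 4.67 FPKM in CD93-negative cells, 4.16-fold lower (2.97 to 5.94). Cd3d had 0.141 FPKM and 1.87 FPKM in the same order, from 3 and 40 reads, 13.2-fold lower (4.22 to 66.9). Cd3e had 1.07 FPKM in CD93-positive and 3.03 FPKM in CD93-negative cells (2.84-fold lower, 2.05 to 3.99), and Cd247 had 0.368 and 1.29 (3.50-fold lower, 2.18 to 5.83). The interval of Cd3d lay above that of Cd3e and overlapped those of Cd3g and Cd247, and the other intervals overlapped each other. Cd28 had 3 reads in CD93-positive and 15 in CD93-negative cells, and with 0.0418 FPKM and 0.208 FPKM it was below the level at which a gene was measured.

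Lat had the opposite sign. It had 17.4 FPKM in CD93-positive and 13.5 FPKM in CD93-negative cells, 1.29-fold higher (1.14 to 1.46), and was the highest of the 6 genes in both libraries. Of the 5 genes measured, 2 were at least 2-fold lower on the log2(FPKM + 1) scale, Cd3d (-1.33) and Cd3g (-1.42), and 0 higher, against 1.94% (lower) and 2.49% (higher) of the 10117 genes measured. Cd3e (-0.96) and Cd247 (-0.74) fell short of the limit on this scale. Their median was -0.96, against 0.04 for all genes. The share of measured genes with a lower difference was 0.544% for Cd3g, 0.741% for Cd3d, 2.08% for Cd3e and 4.29% for Cd247. With a pseudocount of 0.1 all 4 were at least 2-fold lower, beside 3.87% of all measured genes. With a pseudocount of 5 none was, beside 0.593%. With a common sum for both libraries, which moved the median of all genes to -0.12, 3 were, beside 2.92%. Of all genes called in either direction, 56.2% were higher as deposited and 36.9% with the common sum.

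The order of levels differed between the CD93 libraries only in the place of Cd3d and Cd247, whose intervals overlapped in both. In CD93-positive cells it ran Lat, Cd3g, Cd3e, Cd247, Cd3d and Cd28, with overlapping Poisson intervals for Cd3g and Cd3e, for Cd247 and Cd3d, and for Cd3d and Cd28. In CD93-negative cells it ran Lat, Cd3g, Cd3e, Cd3d, Cd247 and Cd28, with overlap for Cd3d and Cd247. Here Cd3e stood above Cd3d, the reverse of the KO and WT libraries; the tables were normalized separately and levels are not set against each other across them.

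Of the 40 signalling genes, 38 were measured in this pair, 4 of them at least 2-fold lower and 2 higher in CD93-positive cells, with a median of -0.18; of all measured genes 1.94% were lower and 2.49% higher by this limit. The lower ones were Dgka, the gene of a diacylglycerol kinase that restrains receptor signalling (24.9 FPKM in CD93-positive and 92.9 in CD93-negative cells; 3.74-fold, ratio 0.268, 0.252 to 0.284), Lck (23.1 and 53.2; 2.30-fold, ratio 0.434, 0.399 to 0.472), Plcg1, the gene of phospholipase C gamma 1 (2.36 and 5.85; 2.48-fold, ratio 0.403, 0.343 to 0.473), and Trat1 (0 and 57 reads). Higher were the transcription factor gene Nfatc2 (42.7 and 18.0; 2.38-fold, 2.27 to 2.50) and Sla, the gene of a Src-like adaptor that lowers receptor levels (61.2 and 28.5; 2.15-fold, 2.06 to 2.24). With the common sum 7 were lower and 1 higher, beside 2.92% and 1.71% of all genes. Themis, a gene of developing T cells, had 0 FPKM in CD93-positive and 0.661 in CD93-negative cells, below the level at which a gene was measured, and Zap70 had 77.4 and 86.9.

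**Figure D4:**
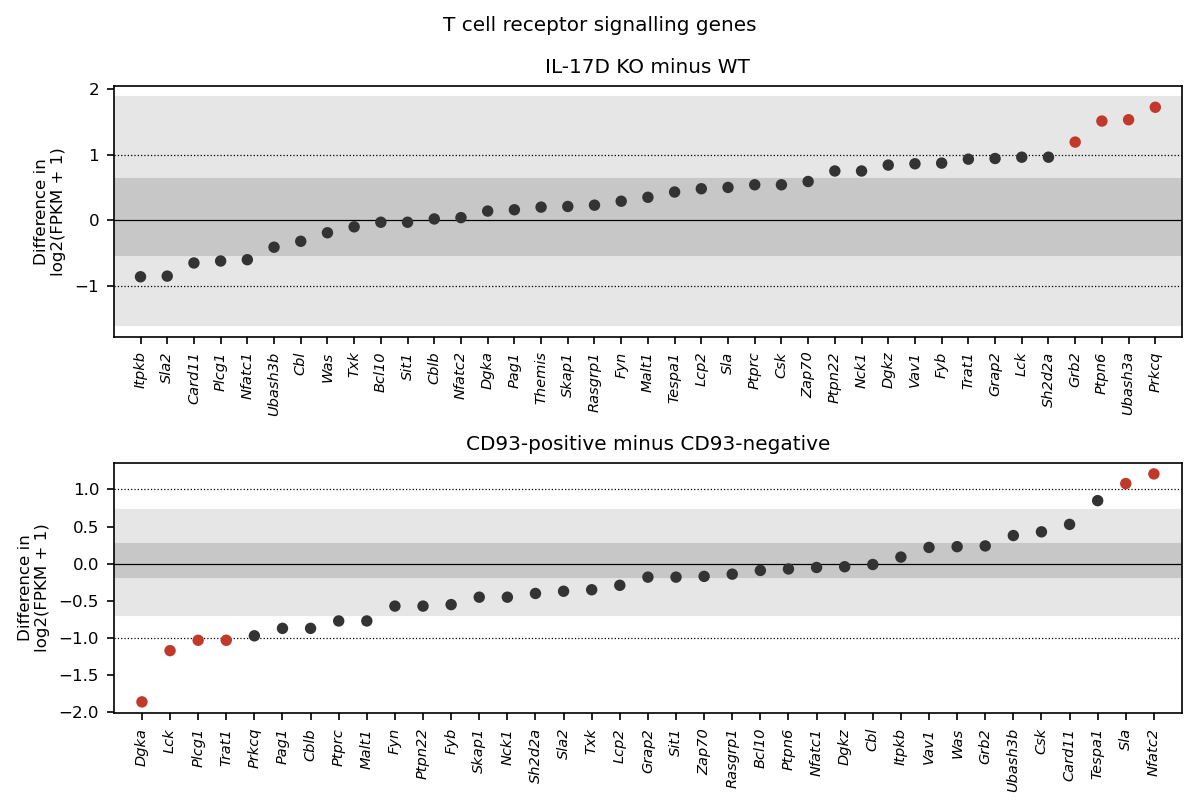
Difference in log2(FPKM + 1) of measured T cell receptor signalling genes, KO minus WT (above) and CD93-positive minus CD93-negative (below), in order of size, with 1 gene of the list not shown and genes at least 2-fold apart in red; shading gives the central 90% and 50% of all measured genes. Prkcq is highest and Itpkb lowest above, and Nfatc2 is highest and Dgka lowest below.

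With the same 1.94% (lower) and 2.49% (higher) over all measured genes as background for each list, 3 of 7 measured T cell surface and subset genes were at least 2-fold lower in CD93-positive cells, the costimulatory receptor gene Cd27 (0.917 FPKM in CD93-positive and 4.04 in CD93-negative cells), Ctla4, the gene of an inhibitory receptor that binds the ligands of CD28 (27.7 and 86.5), and the transcription factor gene Lef1 (0.709 and 2.86). Cd4, which marks helper T cells and also lymphoid tissue inducer cells, was higher, with 27.3 FPKM in CD93-positive and 3.01 in CD93-negative cells. Genes of NK cells and ILC1s were at least 2-fold lower in 5 of 10 (summed 488 FPKM in CD93-positive and 950 in CD93-negative cells), epithelial genes in 1 of 6 measured, with 1 higher (31.6 and 44.5), exocrine pancreas genes in 0 of 5 (129 and 196), and myeloid genes in 0 of 6, with 1 higher (44.6 and 29.1). Of the 3 B cell genes analysed in this pair, Ebf1 had 0.035 and 0.0522 FPKM, Cd79b 2.27 and 4.98, and Blk 24.6 and 3.18 (summed 26.9 and 8.21). Of the ILC3 list, 2 of 12 passed the 2-fold limit upward and 0 downward. The part of these cells in the CD3 levels was not tested.

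The pairs share no library, and each gives its own difference for the CD3 genes. Cd3d, Cd3e, Cd3g and Cd247 were all higher in KO than in WT and lower in CD93-positive than in CD93-negative cells, a combination of signs that 23.8% of the 7595 genes measured in both pairs had. Of these 4 genes, only Cd3d passed the 2-fold limit in both pairs. The share of all genes measured in both that did so was 0.303%. The counting intervals of Cd3d, 0.93 to 1.16 and -1.53 to -0.92, crossed the limit in both pairs. With a pseudocount of 5 its differences were 0.91 and -0.42, below the limit in both. Of 3967 genes with at least 5 FPKM in a library of each pair, the 10 closest to the median of Cd3d, Cd3e and Cd3g (1.04 and -1.33) by Euclidean distance over the 2 differences were Txnip, Lck, Gimap3, Ifi209, Pde5a, Gkn3, Slc16a10, Ccr9, Tnfrsf26 and Tff2, at distances of 0.11 to 0.49. Txnip, the gene of a thioredoxin-binding protein that limits glucose uptake, had differences of 0.95 and -1.27, and Lck 0.96 and -1.17. Ccr9, the gene of the receptor that brings T cells and ILC3s to the small intestine, had 11.6 FPKM in KO, 3.87 in WT, 3.64 in CD93-positive and 13.5 in CD93-negative cells. Gkn3 and Tff2, genes of secreted proteins of the gastric mucosa, had 4650 and 840 FPKM in KO and 2150 and 410 in WT. This likeness rests on 2 differences of single libraries.

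The promoters of the 3 neighbouring CD3 genes are given, and whether these genes share control was not tested. RefSeq's windows (GRCm38.p6) matched 5 of the 10 genes, and each is 300 bases long around the start. The motifs searched on both strands were CANNTG (the E-box of helix-loop-helix factors), TGTGGT (RUNX factors), AGATAA, which GATA factors bind, and GGAA (the core of ETS sites); 72.3%, 16.8%, 11.2% and 96.0% of all 32851 windows hold them in that order. Capitals mark E-boxes, of which Cd3d has 1, Cd3g 4 and Cd3e 2. TGTGGT was in none of the 3, AGATAA was once in Cd3g, and GGAA was 6, 2 and 5 times in Cd3d, Cd3g and Cd3e. A match describes the letters and is not evidence of binding. The windows lie at chr9:44981536-44981835 (Cd3d, plus strand), chr9:44980382-44980681 (Cd3g, minus strand) and chr9:45009562-45009861 (Cd3e, minus strand).
Cd3d: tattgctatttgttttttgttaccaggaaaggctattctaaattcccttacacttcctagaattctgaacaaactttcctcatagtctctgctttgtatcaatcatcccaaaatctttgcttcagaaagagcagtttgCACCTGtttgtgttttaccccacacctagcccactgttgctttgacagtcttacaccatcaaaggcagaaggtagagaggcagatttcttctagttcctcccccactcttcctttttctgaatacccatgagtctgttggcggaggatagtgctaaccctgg
Cd3g: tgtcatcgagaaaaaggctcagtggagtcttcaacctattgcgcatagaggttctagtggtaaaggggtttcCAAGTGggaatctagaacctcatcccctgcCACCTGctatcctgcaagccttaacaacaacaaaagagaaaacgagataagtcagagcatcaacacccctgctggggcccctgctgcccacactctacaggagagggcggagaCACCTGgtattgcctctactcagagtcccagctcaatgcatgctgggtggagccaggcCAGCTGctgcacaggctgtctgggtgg
Cd3e: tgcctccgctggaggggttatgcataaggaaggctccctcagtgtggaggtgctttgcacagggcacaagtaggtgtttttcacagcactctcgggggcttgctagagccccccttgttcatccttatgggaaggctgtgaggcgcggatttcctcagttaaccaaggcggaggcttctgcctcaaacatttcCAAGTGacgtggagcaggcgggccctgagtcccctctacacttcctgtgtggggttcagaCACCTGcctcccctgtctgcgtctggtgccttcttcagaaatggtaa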

How the data were processed

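RNA of small intestinal ILC3s was sequenced in 4 libraries, 1 per group. The values are FPKM, normalized and deposited by the authors in a joint table for each pair. The submitters' processing notes name Bowtie2, featureCounts, Subread, DESeq2 and edgeR and the mm10 build; for roles, versions and annotation nothing is given in the sources used here. The 10 genes and the gene lists were chosen with earlier results of these data known. Whole reads were recovered from FPKM and GENCODE M21 exon lengths to within 0.02 of a read. Of values above 0 in rows with a known length, 91.9% to 92.1% came out whole in the KO and WT libraries. In the CD93 pair it was 98.1% to 98.2%. Of the 15242 rows of the KO and WT pair, 11096 have a name in GENCODE M21 and 10152 were whole in both libraries. Of the 12546 rows of the CD93 pair these were 12420 and 12159. Rows without whole reads in both libraries are not in the background of genes with 0 reads. Recovered reads summed to 20946647 (KO), 21660008 (WT), 11411006 (CD93-positive) and 10750240 (CD93-negative). They may hold amplification copies and were not put to a count test, since each group has 1 library. No fold is given against 0 reads. Named were the 10 genes, genes of the lists at least 2-fold apart or near 0, the 3 receptor locus rows of highest FPKM (Trbd1, Tcrg-C1 and Trbj1-1) and the 10 genes most like the CD3 chains; other list genes and segments were chosen after their values were seen. Alternatives were pseudocounts of 0.1 and 5, no filter or a minimum of 5 FPKM, scaling to a common sum or to a median ratio of 1, and a 3-fold limit. Calculations used Python 3.11.15 with pandas 2.3.3 and scipy 1.17.1, and the calculation was tested on simulated data. Some items of the sort and of the lists are not reported here, though list counts include them.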

Additional observations from a re-analysis of the deposited data

How the results depend on the processing

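With 1 library per group no replicate could be left out. No paired analysis was possible because each group has 1 library. In the KO and WT pair, 7 of the 10 genes were 2-fold higher, and the count was 2 with a pseudocount of 5 and 2 at a 3-fold limit. Of all measured genes, 16.6% were higher as reported, 4.03% with a pseudocount of 5, 7.43% at a 3-fold limit and 19.3% with a common sum. The median of the 10 genes, 1.04, was 0.79 with a pseudocount of 5 and 1.20 with a common sum. The 4 higher signalling genes were 1 with a pseudocount of 5, 10 with a common sum and 1 at a 3-fold limit. With a pseudocount of 0.1, 1 was lower, beside 16.4% of all measured genes. In the CD93 pair, the 2 lower genes were 4 with a pseudocount of 0.1 and 0 with a pseudocount of 5, with a minimum of 5 FPKM or at a 3-fold limit. Of all measured genes, 1.94% were lower as reported, 3.87% with a pseudocount of 0.1 and 0.593% with a pseudocount of 5. With a minimum of 5 FPKM the share was 1.79%, at a 3-fold limit 0.366% and with a common sum 2.92%. The median of the 5 genes measured, -0.96, was -1.57 with a pseudocount of 0.1 and -0.41 with a pseudocount of 5. It was 0.35 with a minimum of 5 FPKM, which left Lat alone. The 2 higher signalling genes were 1 under a common sum or a pseudocount of 5 and 0 at a 3-fold limit. The 4 lower ones were 2 with that pseudocount, 7 with the common sum and 1 at the 3-fold limit. Of all measured genes, 2.49% were higher as reported, 1.71% with the common sum, 1.08% with that pseudocount and 0.722% at the 3-fold limit. A common sum moved the median of all genes to 0.17 in the KO and WT pair and -0.12 in the CD93 pair. Of 84 values of single genes under these alternatives, 0 changed sign. A pseudocount or a filter cannot change the sign of a difference, so only the values under another scaling could have done so. Genes called across the table numbered 2058 higher and 1569 lower in KO as reported and 499 and 322 with a pseudocount of 5, and 252 higher and 196 lower in CD93-positive cells as reported and 109 and 60 with that pseudocount. Depth limits Cd3d and Cd28 in CD93-positive cells, with 3 reads each.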
